A study of Rattus norvegicus with 33 samples.

Results

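ABC transporter subsystems, counted in the DNA of rat cecal contents, are described here. A subsystem is a set of genes that work together in 1 process, named by the annotation of the deposited table. The members are the subsystems whose name begins with the words ABC transporter, and 6 of the 1057 subsystems in the table met that rule. They are named for oligopeptides, dipeptides, branched-chain amino acids, alkylphosphonates, tungstate and an unknown substrate X. The rule itself uses names and no measured value, but the set was chosen by differences in normalized read count between strains and sexes that earlier results of these data had shown. Those were the higher peptide and tungstate counts of WKY males, so their tests describe these rats and are no independent evidence.

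ABC transporters are membrane machines that spend ATP to move a substrate across the membrane. In bacterial uptake systems a binding protein outside the membrane catches the substrate, a pair of permease subunits forms the channel, and ATP-binding subunits drive the transport. Bacteria of the gut use them to take up peptides and amino acids released from food and host proteins, and to collect scarce phosphorus and metals. The reads are DNA, so a count reports how common the gene copies were relative to the rest of the library. It gives neither their absolute number nor how far the genes were used.

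The 33 rats were aged 14 to 15 weeks and came from 2 strains, Wistar Kyoto (WKY), with normal blood pressure, and the spontaneously hypertensive strain (SHR) bred from Wistar Kyoto stock for raised pressure. Females numbered 9 in WKY and 10 in SHR, and males 7 in each strain. The labels name no treatment, and each library came from its own rat. The question the design poses is how strain and sex relate to the genes of the cecal community. Rats are called here by their group and a number that follows the order of deposit. No cage, litter or batch is named in the labels, and the rats' identity numbers run separately in each strain, so strain and order of handling cannot be told apart. Rats that shared a cage or litter would make the p-values too small.

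Libraries held between 95952 and 489862 reads assigned to subsystems. SHR libraries were shallower, with a median of 214911 reads in females and 315719 in males against 396240 and 382975 in WKY. The lowest totals belonged to SHR female 9 (95952 reads), SHR female 10 (132735 reads) and SHR male 4 (159285 reads). Depth also followed the order of deposit in SHR. SHR females 5 to 10 and SHR males 3 and 4, deposited consecutively, held 95952 to 226735 reads. Every other library held more. The labels give no reason for this block. The genera with the highest mean shares of assigned reads were Bacteroides (7.63%), Muribaculum (7.24%) and Lactobacillus (6.88%), all common in the rodent gut. Values below are normalized read counts, the read count of a subsystem divided by a size factor of the library. How many genes and bases each subsystem covers is not given, so levels are compared between rats and not between subsystems.

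Together the members took 0.680 ± 0.216% of subsystem reads (mean ± SD, n = 33). The share ran from 0.460% in SHR female 8 (95% Wilson interval 0.429 to 0.493%) to 1.23% in WKY male 2 (95% Wilson interval 1.20 to 1.27%). By group it was 0.974 ± 0.216% in WKY males, 0.585 ± 0.135% in WKY females, 0.694 ± 0.177% in SHR males and 0.548 ± 0.0472% in SHR females. Groups are listed in this order below unless named. WKY males had the highest mean share. Fewer bacteria with a gene and fewer copies of it in each bacterium cannot be told apart in such counts. The oligopeptide subsystem alone supplied 66.8% of the members' reads, the branched-chain amino acid subsystem 16.8%, the dipeptide subsystem 11.2%, the alkylphosphonate subsystem 4.20% and the tungstate subsystem 1.07%.

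**Figure D1:**
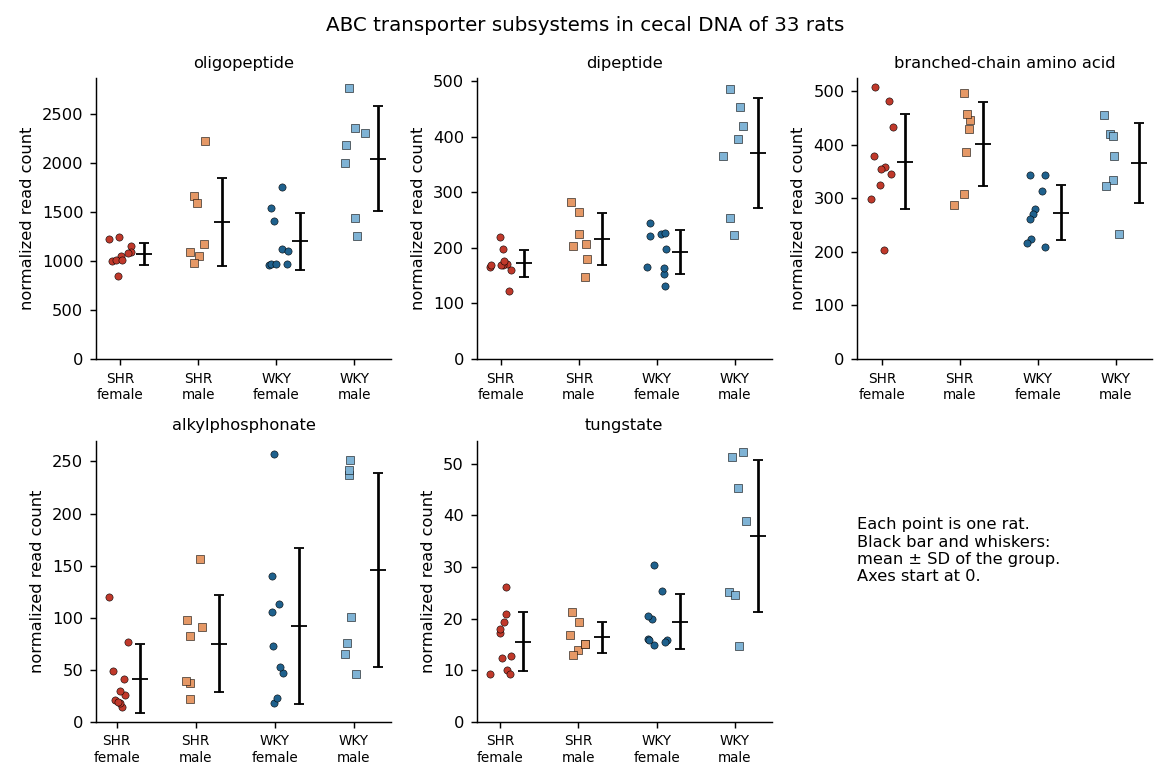
Normalized read count (vertical axis, starting at 0) of the 5 ABC transporter subsystems with reads in every library, by group; each point is 1 rat and the black bars are mean ± SD. Oligopeptide, dipeptide and tungstate values are highest in WKY males, alkylphosphonate values spread widely in every group, and branched-chain amino acid values have their lowest mean in WKY females.

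The dipeptide subsystem, which corresponds to the Dpp type of importer for peptides of a pair of residues, set WKY males apart. Its normalized count in WKY males had a lowest value of 224, a median of 395 and a highest value of 486. In WKY females the lowest, median and highest values were 131, 198 and 245. SHR males ran from 148 through a median of 206 to 282, and SHR females from 123 through 170 to 219. WKY males 1 and 7 were low for their group, at 224 and 254, and lay among the other groups' rats, while the other 5 WKY males lay between 365 and 486, above every other rat.

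Oligopeptide importers of the Opp type take up longer peptides, which in several bacteria also carry signals between cells. The oligopeptide subsystem ran from 1256 through a median of 2188 to 2768 in WKY males and from 965 through 1101 to 1750 in WKY females. In SHR males the lowest, median and highest values were 981, 1169 and 2223, and in SHR females 852, 1070 and 1243. The same 2 rats, WKY males 1 (1441) and 7 (1256), were the lowest of their group here. SHR male 4, a shallow library with 1183 oligopeptide reads, reached 2223 and sat among the WKY males.

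Within WKY, the members that differed between the sexes past the threshold were the peptide subsystems, both lower in females. Dipeptide counts averaged 192 ± 40.1 (SD, n = 9) in females and 371 ± 98.8 (SD, n = 7) in males, 1.93 times as many in males. On the scale of log2(normalized count + 1), the female minus male difference was -0.92 ± 0.15 (SE, 95% interval -1.24 to -0.61), with an adjusted p of 0.00120 in limma over all subsystems. It had the smallest p-value of the whole table for this comparison. Oligopeptide counts averaged 1201 ± 294 in females and 2045 ± 532 in males, a ratio of 1.70, with a log2 difference of -0.76 ± 0.16 and a limma adjusted p of 0.0159. All 9 females lay below the male median in both subsystems, and 6 of 7 males for dipeptides and 5 of 7 for oligopeptides lay above the highest female. The overlap came from WKY male 1 for dipeptides and from WKY males 1 and 7 for oligopeptides.

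In that comparison 0.662% of all subsystems were called (7 of 1057, an adjusted p under 0.05, all lower in females), and 2 of the 6 members were among them. That count rests on single libraries, from 2 without WKY male 5 to 74 without WKY male 7, of which 35 were higher in females, and 46 without WKY female 9, of which 14 were higher. The members' median log2 difference was -0.77, against 0 for the 1024 subsystems with a read. With the fit restricted to the 2 WKY groups, no member passed, at adjusted p-values of 0.0712 for dipeptides and 0.0812 for oligopeptides, and 1 subsystem in all was called. The oligopeptide call was also lost without WKY male 2 (limma adjusted p = 0.0621) or without WKY male 5 (limma adjusted p = 0.0517).

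Between the strains the dipeptide subsystem fell in SHR males relative to WKY males. SHR males averaged 216 ± 46.6 (SD, n = 7), so WKY males held 1.72 times as many, and the log2 difference of SHR minus WKY was -0.76 ± 0.16 with a limma adjusted p of 0.00938. All 7 SHR males lay below the WKY median, and 5 of 7 WKY males above the highest SHR male. The oligopeptide subsystem had a difference of -0.56 ± 0.17 (95% interval -0.91 to -0.21) and a limma adjusted p of 0.0582, so it was not called. Oligopeptides passed in limma without SHR male 4 (adjusted p = 0.0207), without WKY male 1 (0.0350) or without WKY male 7 (0.0126). Those were the SHR male with the highest value and the low WKY males. With all libraries kept, oligopeptides passed in limma after the filter on low values (adjusted p = 0.0383) and in DESeq2 (0.0334). They also passed in limma without the 3 shallowest libraries, which include SHR male 4 (adjusted p = 0.0222). Both comparisons use the same WKY males, so they are not independent of each other.

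Across the males, 2.46% of all subsystems were called between the strains (26 of 1057), and 2 of the 6 members, dipeptide and tungstate. Leaving out 1 library at a time moved the count over all subsystems between 10 (without WKY male 6) and 81 (without WKY male 7). The members' median log2 difference was -0.66, against -0.02 over all subsystems with a read. When only the males entered the fit, neither of these members passed (adjusted p of 0.158 for each) and 2 subsystems in all were called.

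**Figure D2:**
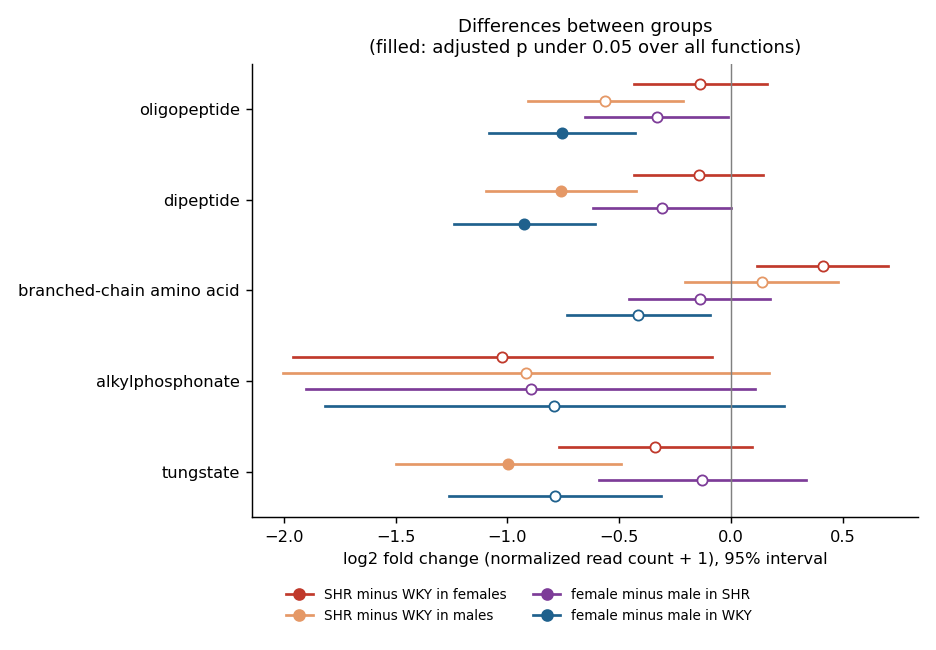
Difference in log2(normalized read count + 1) on the horizontal axis for 5 subsystems, with 95% intervals, in 4 comparisons given by colour; filled points have a limma adjusted p under 0.05 over all subsystems. Filled points are dipeptide and tungstate for SHR minus WKY in males, and dipeptide and oligopeptide for female minus male in WKY, all to the left of 0.

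In females neither peptide subsystem passed between the strains, at mean dipeptide counts of 172 ± 24.8 in SHR and 192 ± 40.1 in WKY and mean oligopeptide counts of 1073 ± 116 and 1201 ± 294. The dipeptide difference of SHR minus WKY was -0.14 ± 0.14 (95% interval -0.43 to 0.14) and the oligopeptide difference -0.14 ± 0.15 (95% interval -0.43 to 0.16). These intervals leave room for a deficit or a small excess in SHR females, and do not show that the strains were equal. The sexes of SHR gave a dipeptide difference of -0.31 ± 0.15 and an oligopeptide difference of -0.33 ± 0.16, the same sign as in WKY, each with a limma adjusted p of 0.837. Whether the strain difference itself depended on sex was tested as an interaction. For dipeptides it was 0.62 ± 0.22 (95% interval 0.17 to 1.06, unadjusted p = 0.00766) and for oligopeptides 0.42 ± 0.22, with limma adjusted p-values of 0.426 and 0.734. A difference between the sexes in the strain effect was therefore not established over the whole table.

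No member was called in these 3 comparisons. Limma called 8.42% of all subsystems between the strains in females (89 of 1057), 0% between the sexes of SHR and 0% for the interaction. At an unadjusted p under 0.05, limma had 2 of 6 members between the strains in females, 1 between the sexes of SHR and 1 in the interaction. On the recovered reads, edgeR and DESeq2 each called 1, 0 and 0 members in the same order. Over all 1057 subsystems, limma had 264 at an unadjusted p under 0.05 between the strains in females, 48 between the sexes of SHR and 82 in the interaction. Counts called were 102, 0 and 0 with edgeR, and with DESeq2 125 of the 845 it gave an adjusted p, 0 of 1024 and 1 of 509.

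Averaged over the sexes, 17.2% of all subsystems were called between the strains (182 of 1057), and 3 of the 6 members. SHR was lower in dipeptides (log2 difference -0.45 ± 0.11, limma adjusted p = 0.00426), in oligopeptides (-0.35 ± 0.11, limma adjusted p = 0.0297) and in tungstate (-0.67 ± 0.16, limma adjusted p = 0.00523). The members' median was -0.40, against -0.04 over all subsystems with a read. The oligopeptide call was lost when any of SHR males 1, 2, 5 and 7, WKY males 2 and 5 or WKY female 9 was left out, at limma adjusted p-values from 0.0505 to 0.0581.

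The peptide subsystems moved together from rat to rat. Over deviations from the group means in 33 rats, log2 dipeptide and oligopeptide counts correlated with Pearson's r of 0.718 (permutation p = 4e-05, Benjamini-Hochberg 0.0002 over 10 pairs of members) and Spearman's rho of 0.762 (permutation p = 2e-05, Benjamini-Hochberg 0.00015). Without the 2 rats farthest from the median, r was 0.688, and within the groups it ran from 0.488 in SHR females to 0.930 in WKY males. Both counts of a rat share a library and its size factor. The number of oligopeptide reads for each dipeptide read was 5.55 ± 0.604 in WKY males, 6.34 ± 1.31 in WKY females, 6.48 ± 1.55 in SHR males and 6.31 ± 0.871 in SHR females. These ratios overlapped across the groups, and both subsystems were higher in the same WKY males. Reads of related peptide importers could be assigned to either subsystem, and how the annotation split them is not given in the sources used here.

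**Figure D3:**
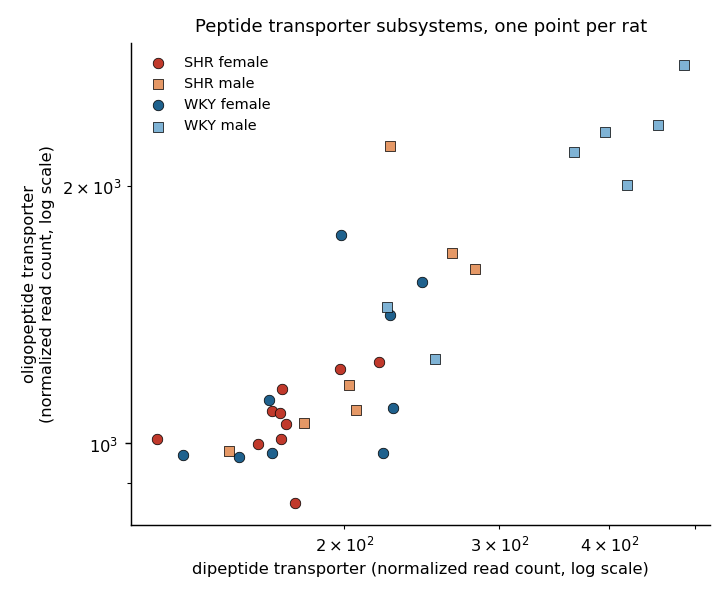
Oligopeptide against dipeptide normalized read counts, both axes on log scales, with 1 point per rat coloured by group. WKY males occupy the upper right, except for WKY males 1 and 7, which lie among the rats of the other groups.

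Other ways of using peptides were compared in the same rats. Subsystems for breaking down peptides and proteins numbered 15, found by name, and 0 of them were called between the sexes of WKY or between the strains in males, while 0 rose and 2 fell in SHR females. Those that fell were Protein degradation (-0.46 ± 0.12, limma adjusted p = 0.0121) and Omega peptidases (-0.82 ± 0.24, limma adjusted p = 0.0310), where omega peptidases remove modified end residues. Averaged over the sexes, 0 rose and 1 fell in SHR, Protein degradation (-0.39 ± 0.09, limma adjusted p = 0.00321). Over all subsystems limma called 0.662% between the sexes of WKY. Between the strains it called 2.46% in males, 8.42% in females and 17.2% averaged over the sexes. Proton-dependent Peptide Transporters, which import small peptides without ATP, had means of 116 ± 41.1 in WKY males, 117 ± 30.6 in WKY females, 91.2 ± 29.95 in SHR males and 97.3 ± 26.6 in SHR females. Dipeptidases, which split dipeptides, had means of 96.3, 108, 89.0 and 89.3 in the same order. Neither subsystem passed in any of the comparisons, and the mean of WKY males was not above that of WKY females in either.

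Among the 657 other subsystems with a read in every library, the 3 whose values over the 33 rats were most like the dipeptide values by Spearman's rho were the oligopeptide subsystem (0.763), Creatine and Creatinine Degradation (0.707) and Carbon monoxide induced hydrogenase (0.677). For oligopeptides they were Carbon monoxide induced hydrogenase (0.813), Sialic Acid Metabolism (0.793) and the dipeptide subsystem. These ranks used deviations of log2 shares from the 4 group means, pooled over the 33 rats. Within single groups rho ran from 0.333 to 0.857 for those of the dipeptide subsystem and from 0.188 to 0.964 for those of the oligopeptide subsystem. The hydrogenase, an enzyme complex that couples oxidation of carbon monoxide to hydrogen, averaged 501 ± 208 in WKY males, 210 ± 92.5 in WKY females, 215 ± 102 in SHR males and 178 ± 52.9 in SHR females. It fell in SHR males against WKY males (log2 difference -1.24 ± 0.30, limma adjusted p = 0.0182) and in WKY females against WKY males (-1.24 ± 0.28, limma adjusted p = 0.0170). No single genus followed the peptide subsystems as closely. Of 1389 genera with a read in every library, the nearest were Clostridioides for dipeptides (rho 0.569, 0.107 to 0.786 within groups) and Slackia for oligopeptides (rho 0.613, 0.433 to 0.842 within groups), chosen as the highest of many and given as descriptions.

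The branched-chain amino acid subsystem, which corresponds to importers of leucine, isoleucine and valine, had another pattern. Its lowest, median and highest normalized counts were 234, 379 and 455 in WKY males, 208, 271 and 343 in WKY females, 287, 428 and 497 in SHR males, and 202, 355 and 508 in SHR females. WKY females were the low group. Of 10 SHR females, 9 lay above the WKY female median and 7 above the highest WKY female, while SHR female 9, the shallowest library with 66 reads here, was the lowest of all rats. SHR females 1 to 4 lay at 357 to 508, and the shallower SHR females 5 to 10 at 202 to 380.

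SHR females averaged 368 ± 89.0 (SD, n = 10) and WKY females 273 ± 51.8 (SD, n = 9), a log2 difference of 0.41 ± 0.14 (95% interval 0.12 to 0.70) with a limma adjusted p of 0.0720. The call changed with the method, since edgeR gave an adjusted p of 0.0319 and DESeq2 0.0177 on the recovered reads. It also passed in limma without SHR female 9 (adjusted p = 0.0121), without WKY female 5 (adjusted p = 0.0442) or without the 3 shallowest libraries (adjusted p = 0.00874). In males the strains were at 401 ± 78.6 and 366 ± 75.3, with a difference of 0.14 ± 0.17 (95% interval -0.20 to 0.48). The sexes of WKY differed by -0.41 ± 0.16 (limma adjusted p = 0.142) and those of SHR by -0.14 ± 0.15 (limma adjusted p = 0.913). Averaged over the sexes, SHR minus WKY was 0.27 ± 0.11 with a limma adjusted p of 0.0794. It passed with edgeR (0.0404) and DESeq2 (0.0294). In limma it passed without SHR female 9 (adjusted p = 0.0212), without SHR male 6 (0.0469) and without the 3 shallowest libraries (0.0207).

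Making and using these amino acids was covered by 8 other subsystems found by name, and 0 of 8 were called in any comparison by limma. The shares called over all subsystems were 8.42% between the strains in females, 2.46% in males and 17.2% averaged over the sexes. Between the sexes they were 0.662% in WKY and 0% in SHR, and for the interaction 0%. SHR minus WKY lay below 0 for 1 of the 8 in each sex. Branched-Chain Amino Acid Biosynthesis averaged 1529 ± 273 in SHR females and 1377 ± 198 in WKY females, a log2 difference of 0.14 ± 0.11 (limma adjusted p = 0.467). Oligopeptide reads for each branched-chain read averaged 5.80 ± 1.84 in WKY males, 4.62 ± 1.68 in WKY females, 3.59 ± 1.31 in SHR males and 3.09 ± 0.920 in SHR females. The balance between peptide and amino acid importers thus differed in its means, with ranges that overlapped across the groups.

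The subsystems most like the branched-chain values over the rats were Omega-amidase KE2 (rho 0.716) and Ligases that form carbon-carbon bonds (rho 0.710), with 0.567 to 0.855 within single groups. The most alike genera were Cohnella (0.811), Ferrimonas (0.792) and Microterricola (0.790), with 0.517 to 1 within single groups. These are sparse genera, which took at most 0.0965%, 0.0118% and 0.0103% of a library's assigned reads. Names of sparse genera are as the deposited table gives them.

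The alkylphosphonate subsystem corresponds to Phn importers, which collect organic phosphorus compounds with a carbon to phosphorus bond. It varied more than the other members with reads in every library, with a coefficient of variation of 62.1 to 81.0% within the groups. SHR females ran from 14.6 through a median of 27.5 to 120, and SHR males from 22.2 through 82.7 to 156. WKY females ran from 17.5 through 72.8 to 257, and WKY males from 46.3 through 101 to 252. Values spread widely in every group, and WKY males 4, 5 and 6 with WKY female 9 formed the top of the range, at 237 to 257. No WKY male lay below 46.3, whereas 3 of 7 SHR males did.

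Group means were 145 ± 93.1 in WKY males, 92.1 ± 74.6 in WKY females, 75.0 ± 46.6 in SHR males and 41.4 ± 33.3 in SHR females. The log2 difference of SHR minus WKY was -1.02 ± 0.46 (95% interval -1.96 to -0.086) in females and -0.92 ± 0.53 (95% interval -2.01 to 0.17) in males, with limma adjusted p-values of 0.154 and 0.357. Without the 3 shallowest libraries, SHR females 9 and 10 and SHR male 4, the female difference was -1.40 and passed (limma adjusted p = 0.0406). Averaged over the sexes it was -0.97 ± 0.35 with a limma adjusted p of 0.0542, and edgeR and DESeq2 gave 0.0277 and 0.0123. It passed in limma after the filter on low values (adjusted p = 0.0383) and without the 3 shallowest libraries (0.0155). In limma the call appeared without any 1 of SHR females 9 and 10, SHR male 6, WKY males 2, 3 and 7 or WKY females 4 and 5, at adjusted p-values from 0.0246 to 0.0490.

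Its values followed the genus Lactobacillus closely over the 33 rats. Spearman's rho was 0.945 and Pearson's r 0.942, both on deviations of log2 shares from the group means. That rho was the highest among 1389 genera, and rho within the groups ran from 0.786 to 0.976. Without the 2 rats farthest from the median, r was 0.929. Lactobacillus took 10.9 ± 7.92% of assigned reads in WKY males, 8.66 ± 6.85% in WKY females, 5.48 ± 3.85% in SHR males and 3.41 ± 3.87% in SHR females, the same order of means as the transporter. Over deviations from the group means, the slope of the log2 transporter share on the log2 Lactobacillus share was 0.85. Lactobacillus shares in SHR followed the order of deposit too. They were 0.858 to 1.58% in SHR females 1 to 4 and SHR males 1 and 2, and 1.28 to 13.2% in the later SHR rats. The part of Lactobacillus in the strain values and that of deposit order in this likeness were not tested.

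**Figure D4:**
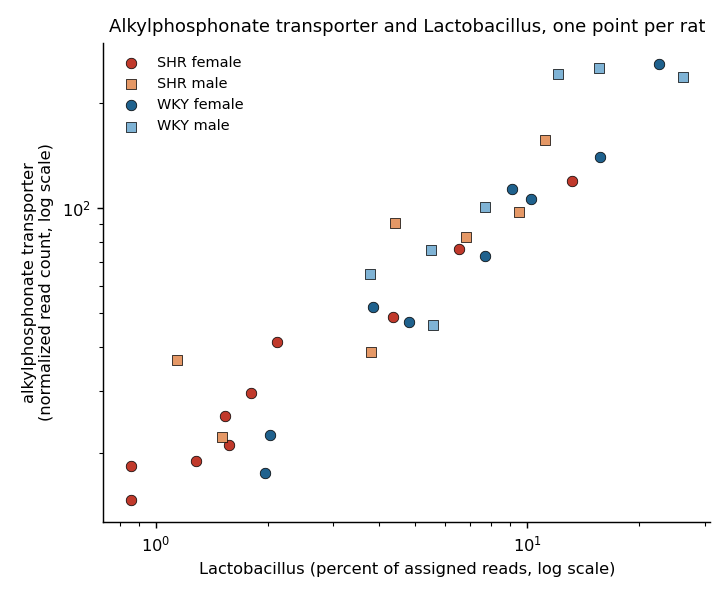
Alkylphosphonate transporter (normalized read count) against the share of assigned reads named Lactobacillus, both axes on log scales, 1 point per rat coloured by group. The points of all 4 groups lie along 1 band. Spearman's rho of 0.945 over 33 rats was computed on deviations of log2 shares from the group means, not on the plotted values.

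The 3 subsystems most like it among 657 were Bacteriocins in Lactobacilli (rho 0.964), Gram Positive Competence (rho 0.960) and D-Alanyl Lipoteichoic Acid Biosynthesis (rho 0.953), all processes of Gram-positive bacteria. Those rankings pick the highest of many values and share the libraries, so they are descriptions. For the other members, rho with Lactobacillus was -0.606 for branched-chain amino acids, 0.428 for oligopeptides, 0.238 for dipeptides and -0.105 for tungstate. The alkylphosphonate and branched-chain subsystems ran against each other within groups, with r of -0.739 (permutation p = 1e-05, the smallest the permutations can give, Benjamini-Hochberg 0.0001) and rho of -0.748 (permutation p = 3e-05, Benjamini-Hochberg 0.00015). Without the 2 farthest rats r was -0.740, and within the groups it ran from -0.868 to -0.638. Both counts of a rat come from the same library. Of the 10 pairs of members, the remaining 8 had Benjamini-Hochberg values of 0.1 or above.

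Phosphonates are also handled by subsystems that are not members. Alkylphosphonate utilization, which covers breaking the carbon to phosphorus bond, averaged 90.9 ± 24.2 in WKY males, 91.7 ± 15.2 in WKY females, 76.0 ± 20.2 in SHR males and 91.8 ± 18.2 in SHR females. Of the 3 subsystems of this list, 1 rose and 0 fell in SHR females, and none passed in males. Over all subsystems limma called 8.42% in females and 2.46% in males. The subsystem that rose was Phosphoenolpyruvate phosphomutase, the enzyme that makes the carbon to phosphorus bond, with 253 ± 56.2 in SHR females and 126 ± 40.8 in WKY females (log2 difference 1.03 ± 0.22, limma adjusted p = 0.00309). Its direction was opposite to that of the importer's values in the same rats.

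Tungstate is taken up by the Tup type of importer and feeds the tungsten or molybdenum cofactor of some bacterial enzymes. Its subsystem had few reads, from 3 in SHR female 9 (exact 95% Poisson interval 0.62 to 8.77) to 65 in WKY male 3 (exact 95% Poisson interval 50.2 to 82.8). Counting error is therefore wide in the shallow libraries. Normalized counts in WKY males ran from 14.7 through a median of 39.0 to 52.3, in WKY females from 15.0 through 15.95 to 30.4, in SHR males from 12.98 through 15.0 to 21.4 and in SHR females from 9.20 through 15.0 to 26.2. WKY male 6 was the low rat of its group at 14.7 and lay with the other groups, though its peptide values were high. The low peptide rats, WKY males 1 and 7, were at 25.2 and 24.6, above every SHR male.

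WKY males averaged 36.1 ± 14.7 (SD, n = 7) and SHR males 16.4 ± 3.02 (SD, n = 7), a ratio of 2.21. The log2 difference of SHR minus WKY was -0.996 ± 0.25 (95% interval -1.50 to -0.49) with a limma adjusted p of 0.0259. All 7 SHR males lay below the WKY median, and 6 of 7 WKY males above the highest SHR male. The call was lost without WKY male 5 (limma adjusted p = 0.0702). The sexes of WKY differed by -0.79 ± 0.23 (limma adjusted p = 0.0697), which edgeR and DESeq2 placed at 0.0257 and 0.0104, and which passed in limma without WKY male 6 (0.0214), WKY male 7 (0.0296) or WKY female 9 (0.0308). In females the strains differed by -0.34 ± 0.21 (95% interval -0.77 to 0.095), and the interaction was 0.66 ± 0.33 with a limma adjusted p of 0.660.

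Of 37 other subsystems for metals, found by name, 35 had a read. Limma called 1 of them between the strains in males, 1 in females and 5 averaged over the sexes, and 0 between the sexes of either strain. Over all subsystems it called 2.46% in males, 8.42% in females and 17.2% averaged over the sexes. Of the 35, SHR minus WKY lay below 0 for 18 in males, 24 in females and 23 averaged over the sexes. The subsystem called in males was Molybdenum cofactor biosynthesis, the pathway for the cofactor that holds molybdenum or tungsten. It averaged 118 ± 10.0 in SHR males and 179 ± 51.0 in WKY males (log2 difference -0.55 ± 0.15, limma adjusted p = 0.0325), and 119 ± 16.7 in SHR females and 127 ± 27.3 in WKY females. WKY males thus had the highest mean of the groups in both the tungstate importer and this pathway, but the leading rats differed. WKY male 6 had the highest pathway value (268) and the lowest tungstate value of its group (14.7). WKY male 2 had the highest tungstate value (52.3) and a pathway value of 125. WKY males 4 and 5 were high in both, at 39.0 and 45.4 for tungstate and 197 and 206 for the pathway. The sex difference of the pathway in WKY was -0.48 ± 0.14 with a limma adjusted p of 0.0635.

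Averaged over the sexes, SHR was lower in Transport of Zinc (log2 difference -0.80 ± 0.22, limma adjusted p = 0.0124), Transport of Manganese (-0.62 ± 0.20, limma adjusted p = 0.0282) and Campylobacter Iron Metabolism (-0.20 ± 0.06, limma adjusted p = 0.0177). The fifth of that list was Transport of Nickel and Cobalt (-0.32 ± 0.11, limma adjusted p = 0.0441), named after its value was seen. Transport of Molybdenum had means between 1.03 in WKY males and 1.96 in SHR females, too few reads to compare. The one metal subsystem called higher in SHR females was Siderophore Yersiniabactin Biosynthesis (1.05 ± 0.29, limma adjusted p = 0.0223), which makes an iron carrier. It too had few reads, with normalized counts from 0 to 6.13 (median 1.78) in SHR females and from 0 to 0.724 (median 0) in WKY females.

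**Figure D5:**
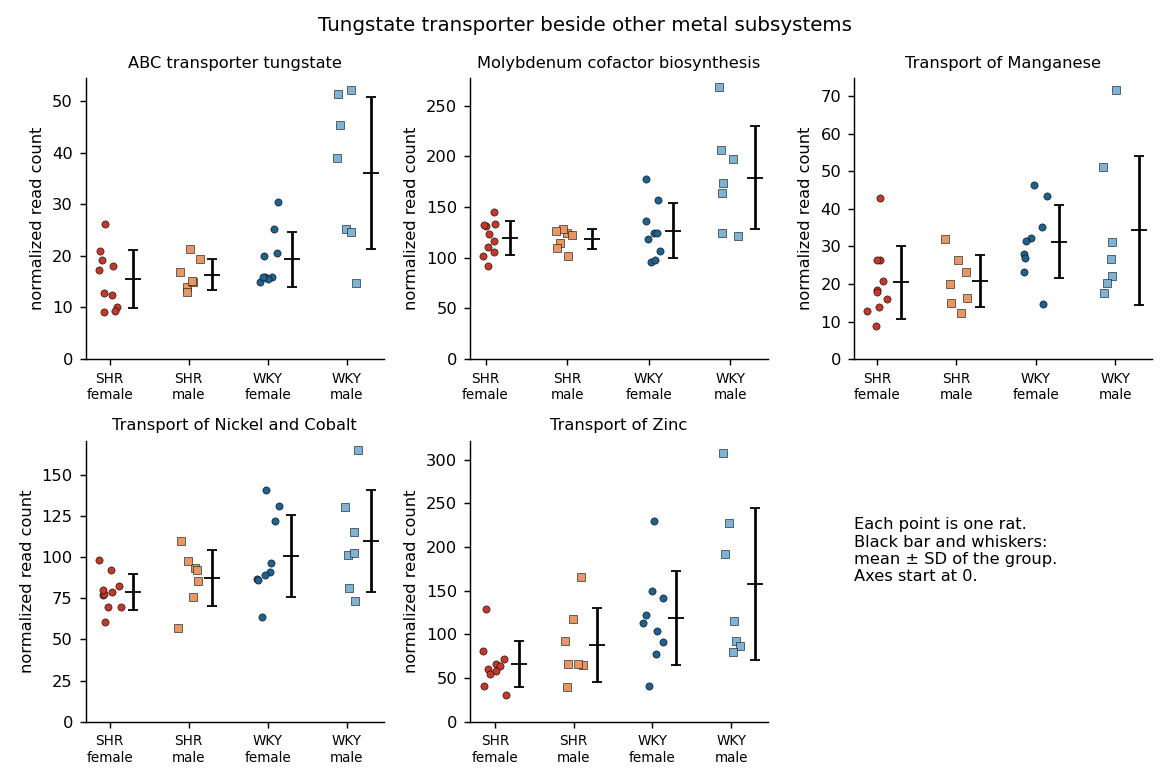
Normalized read count (vertical axis, starting at 0) of the tungstate transporter and of 4 other metal subsystems by group; each point is 1 rat and the black bars are mean ± SD. All 5 subsystems have their highest mean in WKY males, and within each sex their means are lower in SHR than in WKY. The 4 others were taken from the 5 of 37 metal subsystems called averaged over the sexes, all lower in SHR.

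The subsystem for an unknown substrate X had 3 reads in all, 1 in SHR female 6 and 2 in WKY male 1. The other 31 libraries had 0 reads, which allows a share of up to 0.000612% in the deepest library and 0.00313% in the shallowest. Nothing can be said of its groups.

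Some transporters of the same class carry other names and are not members. Peptide ABC transport system Sap, which takes up antimicrobial peptides, had means of 3.37, 3.34, 1.26 and 2.34, too few reads to compare. The Putative sugar ABC transporter (ytf cluster) had means of 47.6 ± 12.8, 51.3 ± 11.9, 67.0 ± 12.1 and 66.4 ± 23.7, with the higher mean in SHR within each sex, where both peptide members had the lower one. The ytf difference between the strains was not called, at limma adjusted p-values of 0.348 in females, 0.201 in males and 0.0573 averaged over the sexes. The peptide members were not called in females either. Of 51 other transport subsystems, limma called 4 for females of SHR against WKY (2 up, 2 down), 1 for males (down), 12 averaged over the sexes (2 up, 10 down) and 0 between the sexes of WKY. Over all subsystems the shares called were 8.42%, 2.46%, 17.2% and 0.662% in the same order. Trehalose Uptake and Utilization, for a sugar made by bacteria and fungi, fell in SHR females (-0.51 ± 0.12, limma adjusted p = 0.00816) and in SHR males (-0.54 ± 0.14, limma adjusted p = 0.0319). Of 9 subsystems for drug export, 1 fell in SHR in each sex, the 2-protein type of multidrug resistance in Gram-positive bacteria (-1.27 ± 0.35 in females and -1.88 ± 0.40 in males, limma adjusted p-values of 0.0184 and 0.00938). None of 5 subsystems for proline and betaine, and not the 1 for maltose, was called.

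The authors' deposited tables of their own models list some of the members. In the authors' deposited table of the general model (148 subsystems), dipeptides have a log2 fold change of 1.10 (adjusted p = 2.97e-11), oligopeptides 0.93 (adjusted p = 4.70e-07), tungstate 1.18 (adjusted p = 3.14e-05) and branched-chain amino acids -0.02 (adjusted p = 0.00853). In the authors' deposited table of the male model (16 subsystems), dipeptides have 0.78 (adjusted p = 0.00237) and tungstate 1.12 (adjusted p = 0.00589). No member is in the authors' deposited table of the female model (85 subsystems). Those tables do not name their contrasts. The general values lie next to log2 ratios of the WKY male over the SHR female mean (1.11, 0.93, 1.21 and -0.01), and the male values next to WKY over SHR males (0.78 and 1.14), so positive would stand for higher in WKY males. A p-value beside a fold change near 0, as for branched-chain amino acids, may belong to a test of all groups, which the table does not say.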

How the data were processed

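Per the labels' protocols, cecal DNA was extracted with magnetic beads and sequenced as Nextera libraries. The submitters' processing notes name Trimmomatic 0.36, cutadapt 2.6, FastQC 0.11.5 and DESeq2, the last with no version. How subsystems were assigned is not given in the sources used here. The authors deposited a table of 1057 subsystems whose signal is the read count divided by a size factor, a table of genera in percent of reads, and tables of their models with log2 fold changes and p-values.

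Dividing by the value of 1 read gave whole reads for 100% of the signal values, within 0.01 read. Whole-table fits used limma on log2(signal + 1), with variance trend and robust estimation, over 33 samples as 4 group means. All 1057 subsystems were tested, 1024 of them with a read, and a call is a 2-sided Benjamini-Hochberg adjusted p under 0.05. A fold on this scale understates changes of low subsystems. The limma step was tested on simulated data. Intervals and limits from reads cover counting error only, since the labels name no molecular identifiers that would show PCR copies.

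All 6 members are named. From each list of related subsystems, found by words in the name, up to 4 called ones per comparison with the smallest adjusted p are named, and a few uncalled relatives were chosen after their values were seen. The members and lists were chosen with earlier results of these data known. Likeness was ranked for members with a mean of at least 50 and a read in every library. It used Spearman's rho on deviations of log2 shares from the group means. Correlations between members used 100000 permutations within groups. Alternatives were pseudocounts of 0.5 and 10, a minimum of 10 in at least 7 samples (650 subsystems, 5 members), equal library totals, edgeR and DESeq2 on recovered reads, limma without trend and robust estimation, the groups compared alone, and libraries left out. Fits ran in R 4.3.3 with DESeq2 1.42.0, edgeR 4.0.16 and limma 3.58.1. Tables and plots used scipy 1.17.1, pandas 2.3.3, numpy 2.4.6, matplotlib 3.10.9 and Python 3.11.15.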

Additional observations from a re-analysis of the deposited data

Results flagged for a closer look

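Of 22 sets of values of a member in a group, 2 had a rat far from the others, both for the unknown substrate X. SHR female 6 was at 1.33 normalized counts (1 read) and WKY male 1 at 1.48 (2 reads), where all other rats of those groups were at 0. Chance flags about 1 in 20 sets, and a single read is enough here.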

How the results depend on the processing

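No member's called difference changed sign under any alternative, and over all members, comparisons and alternatives 1476 of 1524 values kept their side of the threshold, 34 came to pass it and 14 ceased to. Among values that were not called, 9 changed sign (7 of alkylphosphonate in the interaction, 1 of branched-chain amino acids between the sexes of SHR and 1 of the unknown substrate X averaged over the sexes), and 4 of the unknown substrate X became 0. The number of members called between the strains in females went from 0 to 1 with edgeR, 1 with DESeq2 and 2 without the 3 shallowest libraries. Averaged over the sexes it went from 3 to 5 with edgeR, with DESeq2 and without the 3 shallowest libraries, where the calls over all subsystems went from 182 of 1057 to 201 of 1057, 219 of 885 and 222 of 1057. With the 2 groups compared alone it went from 2 to 0 between the strains in males and from 2 to 0 between the sexes of WKY. Leaving out 1 library at a time gave 0 to 1 members in females, 1 to 3 in males, 2 to 5 averaged over the sexes, 1 to 3 between the sexes of WKY, and 0 to 0 between the sexes of SHR and for the interaction. The cause of these shifts was not tested.

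Counts of all subsystems called also moved. In males they were 26 in limma, 50 after the filter on low values, 77 with DESeq2 and 2 with the males alone. Without 1 library they were 10 (WKY male 6), 11 (WKY male 5), 12 (SHR male 1), 17 (SHR male 2), 40 (WKY male 2), 46 (WKY male 1) and 81 (WKY male 7). Between the sexes of WKY they were 7 in limma, 12 without the 3 shallowest libraries, 14 over subsystems with a read (an alternative chosen after seeing the data), 23 after the filter, 34 with edgeR, 68 with DESeq2 and 1 with the WKY rats alone. Without 1 library they were 2, 3, 4 and 4 (WKY males 5, 2, 3 and 4), 11 (WKY female 6), 17 (SHR female 1), 19 (SHR male 4), 24 (WKY male 1), 45 and 46 (WKY females 1 and 9) and 74 (WKY male 7). In females they were 89, 102 with edgeR, 125 with DESeq2 and 150 without the 3 shallowest libraries. For the interaction they were 0, and 1 with DESeq2 or without WKY male 2. Between the sexes of SHR they were 0, and 1 without SHR male 1. Depth limits tungstate and the unknown substrate X most. The members' share of reads stayed at 0.681% over filtered subsystems and 0.678% without the 3 shallowest libraries. No paired analysis was possible because the replicate numbers follow the order of deposit and the rats' identity numbers match no rats across groups.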
